A study of Mus musculus with 48 samples.

Results

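Chromatin and DNA methylation regulators, a list of 52 genes, were followed through the maturation of mouse myeloid progenitors into monocytes. The 52 genes were chosen by name and are 52 of 34617 gene rows in the expression table. They comprise 4 genes for writing and maintaining DNA methylation, 3 TET dioxygenases, 5 genes of Polycomb repressive complex 2 (PRC2), 8 genes of Polycomb repressive complex 1 (PRC1) and its partners, 7 histone methyltransferases, 4 histone demethylases, 8 deacetylases, 3 acetyltransferases, 5 chromatin remodellers and 5 high-mobility-group (HMG) proteins. The cells were ER-Hoxb8 cells from mouse bone marrow, myeloid progenitors held in a dividing state by the homeobox factor Hoxb8 fused to the hormone-binding domain of the estrogen receptor, so that both states come from cells immortalised with the same fusion. Each of 24 clones, numbered 1 to 13, 15 to 24 and 26, gave 1 library of monocytic cells (monocytes, n = 24) and 1 library of granulocyte-monocyte progenitors (progenitors, n = 24), and the design text pairs the states by clone. The growth protocol of the labels, RPMI medium with serum and stem cell factor, is the same for both states, and the labels do not say how, or for how long, the cells were matured. Each clone has 1 library per state, so the spread reported here is the spread between clones. Levels are TPM (Salmon's transcript abundances), which are corrected for length, sum to about the same total in each library and keep no sequencing depth, so the depth was unknown.

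DNA methylation is written on new sites by Dnmt3a and Dnmt3b, copied at each replication by Dnmt1 with its guide Uhrf1, and oxidised towards removal by the TET enzymes. PRC2 places a repressive methyl mark on histone H3 through Ezh2 or Ezh1, and PRC1 ubiquitinates histone H2A and compacts marked chromatin. Acetyltransferases and the trithorax-type methyltransferases mark active enhancers and promoters, deacetylases and demethylases reverse these marks, remodellers move nucleosomes, and HMG proteins bind nucleosomes or bend DNA. In blood formation, Dnmt3a, Tet2, Asxl1 and Ezh2 are known as genes that are recurrently mutated in myeloid disease.

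The summed levels of the markers followed the labelled states, and by their medians each marker of either list did so except Ccr2. The summed level of 6 monocyte markers ranged from 2143 to 20393 TPM with a median of 11572 in monocytes, against 56.6 to 1328 TPM with a median of 172 in progenitors. Lyz2 made up most of that sum, with medians of 10123 TPM in monocytes and 58.0 TPM in progenitors, and Ccr2, a chemokine receptor of inflammatory monocytes, went the other way, with medians of 30.01 TPM in monocytes and 56.9 TPM in progenitors. The sum of 4 progenitor markers had a median of 43.0 TPM in monocytes and 741 TPM in progenitors. Markers of other myeloid cells moved with the states too. The sum of 5 neutrophil markers, which include the S100a8 and S100a9 genes that monocytes also express, had a range of 339 to 183022 TPM and a median of 72868 TPM in monocytes, against 0.763 to 10680 TPM and a median of 9.48 TPM in progenitors. The rise was not limited to the S100 genes. Ltf, Ngp and Camp had medians of 13646, 2702 and 718 TPM in monocytes, against 1.31, 0.335 and 0.0902 TPM in progenitors. The median of Ltf in monocytes was thus above that of Lyz2. The sum of 4 mast cell and basophil markers ranged from 0.215 to 1898 TPM with a median of 37.4 in monocytes, against 328 to 2782 TPM with a median of 1416 in progenitors. The sum of 3 eosinophil markers ranged from 0.249 to 1155 TPM with a median of 118 in monocytes, against 0.110 to 129 TPM with a median of 0.886 in progenitors. The sum of 4 erythroid and megakaryocyte markers ranged from 0.111 to 62.3 TPM with a median of 2.25 in monocytes, against 17.9 to 177 TPM with a median of 72.0 in progenitors. Medians under 1 TPM were seen in monocytes for Flt3, Fcer1a, Gata2, Epx, Gata1, Klf1 and Hbb-bt. In progenitors they were seen for Csf1r, Cx3cr1, Camp, Ngp, Fcer1a, Prg2, Epx, Prg3 and Klf1. The part of these lists in the results below was not tested. In bulk RNA, fewer cells of a type and less RNA per cell cannot be told apart. The progenitor library of clone 24 stood apart: it held the lowest progenitor value of 30 of the 52 genes, had the fewest genes at 1 TPM or more (8240) and the highest mitochondrial share of any progenitor library (16.7%). The progenitor libraries of clones 21 and 20 had the most monocyte markers, 1330 and 1260 TPM, and the most neutrophil markers, 6070 and 10700 TPM, and that of clone 21 also had few progenitor markers (228 TPM). Results are given without these clones where leaving them out moved them. Some monocyte libraries stood apart as well. Those of clones 8 and 19 each held the lowest monocyte value of 13 genes, and that of clone 20 held the highest of 15. The monocyte of clone 26 had a mitochondrial share of 25.1%. Monocytes of clones 22 and 17 had the most progenitor markers, 331 and 244 TPM, and that of clone 22 had the fewest neutrophil markers, 339 TPM.

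Uhrf1, Ezh2 and Hmgb1 had the monocyte levels that followed the replication genes most closely across clones, as described further on, and their promoters are shown for that reason. The sequences are from RefSeq (GRCm38.p6) and run 5′ to 3′ on the gene's strand from 250 bases before the listed start of transcription to 20 bases after it. Capitals mark an exact match to any of 4 E2F-type motifs, TTTCCCGC, TTTGGCGC, TTTGCCGC and TTTCGCGC, searched on both strands. E2F factors are known to drive genes of DNA replication.
Uhrf1, chr17:56304063-56304332, plus strand: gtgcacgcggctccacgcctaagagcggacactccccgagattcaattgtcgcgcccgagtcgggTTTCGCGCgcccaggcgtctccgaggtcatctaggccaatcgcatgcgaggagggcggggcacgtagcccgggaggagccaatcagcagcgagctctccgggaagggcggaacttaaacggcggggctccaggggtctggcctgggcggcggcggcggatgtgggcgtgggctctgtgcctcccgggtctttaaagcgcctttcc
Ezh2, chr6:47595011-47595280, minus strand: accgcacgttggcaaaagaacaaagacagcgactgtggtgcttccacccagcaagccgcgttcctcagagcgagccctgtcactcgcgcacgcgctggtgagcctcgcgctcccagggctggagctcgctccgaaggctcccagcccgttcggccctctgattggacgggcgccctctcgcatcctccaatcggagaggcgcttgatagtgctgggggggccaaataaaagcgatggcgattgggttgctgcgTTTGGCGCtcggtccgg
Hmgb1, chr5:149053038-149053307, minus strand: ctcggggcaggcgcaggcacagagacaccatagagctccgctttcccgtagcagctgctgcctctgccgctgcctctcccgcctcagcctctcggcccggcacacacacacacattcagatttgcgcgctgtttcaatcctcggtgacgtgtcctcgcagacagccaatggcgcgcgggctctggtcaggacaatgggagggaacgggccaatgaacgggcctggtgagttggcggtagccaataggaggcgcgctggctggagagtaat
The Uhrf1 window holds 1 match, the Ezh2 window holds 1 match that begins just after the start, and the Hmgb1 window holds none of these letters. Where RefSeq lists several starts, as for Uhrf1 and Hmgb1, the window with the most matches was taken. Promoters were found for 46 of the 52 genes. Over the full windows of 300 bases, 6 of these 46 genes held a match, namely Uhrf1, Ezh2, Dnmt1, Suz12, Kat2a and Arid1a. Among all genes tested between the states the share was 5.04%, and in the S-phase list used below it was 50.0% (4 of 8 genes). Of all 32851 promoter windows, 2.26% held a match. A match of letters is not a shown binding site, and a window without one says nothing about the factor.

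Over all clones, more of the regulators fell than rose between the states. Of 50 genes with a mean of at least 1 TPM over all libraries, 11 were higher in monocytes, 18 were lower and 21 did not pass (limma on log2(TPM + 1), blocked by clone, adjusted p under 0.05). Across all 11072 genes tested, 32.4% were higher and 36.5% lower, so the shares of the regulators, 11 and 18 of 50, lay below the background in the first direction and at it in the second. The median log2 fold change was -0.08 for the regulators and -0.06 for all genes. Of all genes, 68.8% passed in either direction. Passing changes of at least 1 log2 unit were seen for 3 regulators upward, Dnmt3a, Ep300 and Hdac4, and for 9 downward, Dnmt3b, Hmgn1, Hmgb1, Bmi1, Ezh2, Hdac2, Kat2a, Hmga1 and Kdm2b. Across all genes 1768 rose and 1477 fell that far, 29.3% in either direction. None of the 52 genes had state ranges that did not overlap, which over all genes was the case for 1.14% with monocytes above and 0.560% with monocytes below. Without clone 24, 11 regulators were higher and 20 lower, and without clone 21 or clone 20 it was 11 and 16 in either case. Cbx7 and Hdac9, with means under 1 TPM, were not tested. Cbx7 had a median of 0.536 TPM in monocytes and 0.651 TPM in progenitors, and Hdac9 had 0.623 TPM in monocytes and 0.225 TPM in progenitors. Dnmt3b, Cbx2 and Tet1, and Dnmt3l among the other chromatin genes below, averaged under 1 TPM in one state and passed the filter through the state where they are high.

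**Figure D1:**
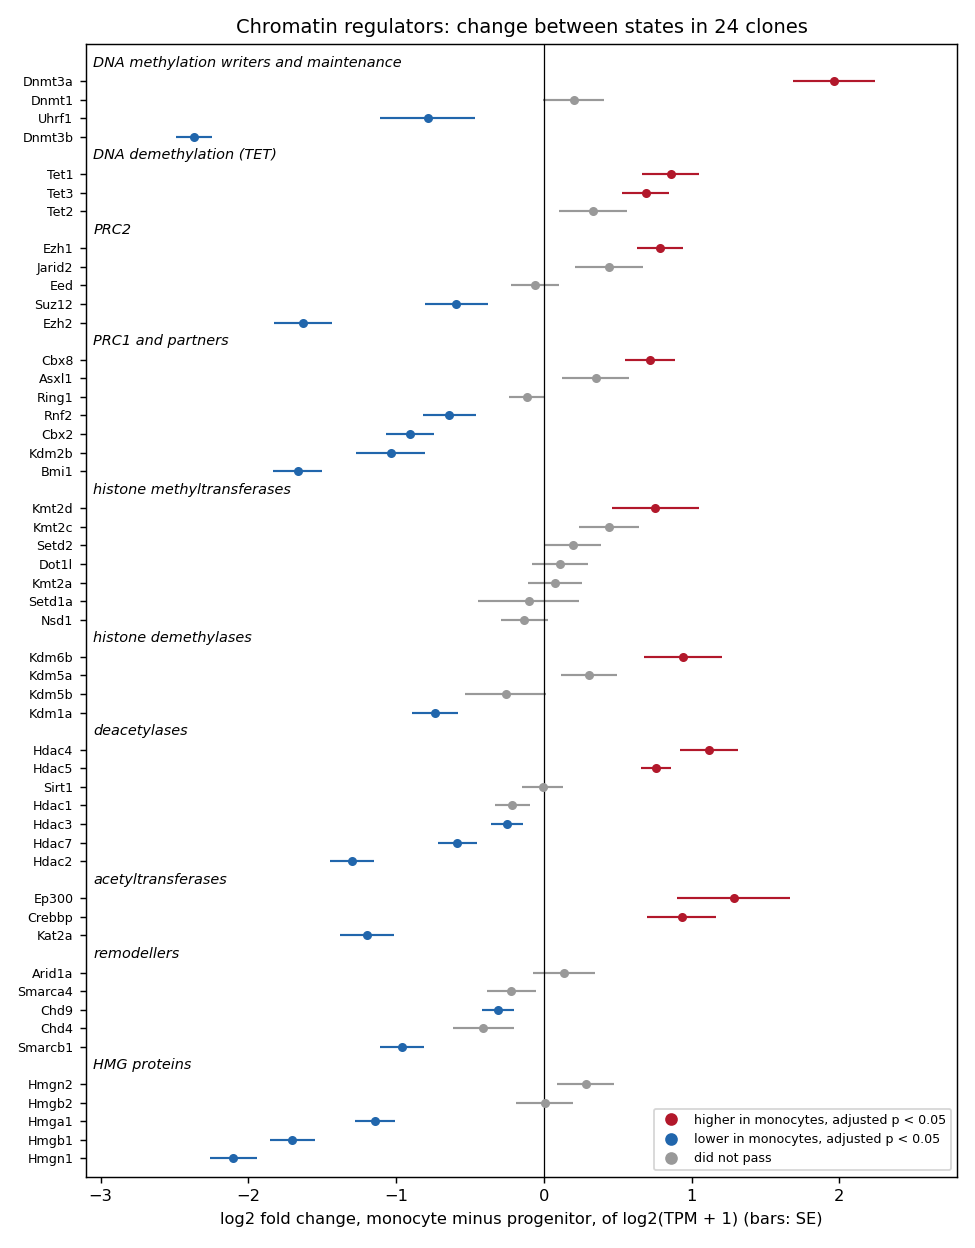
Log2 fold change (monocyte minus progenitor, on log2(TPM + 1)) of the 50 regulators tested, by role, with bars for the SE over 24 clones. Genes that passed in the monocyte direction are red, those that passed in the progenitor direction are blue and those that did not pass are grey; Dnmt3a lies farthest right at 1.96 and Dnmt3b farthest left at -2.37.

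The enzymes that write new DNA methylation moved in opposite directions. Dnmt3a (chr12:3806007-3914443, mm10) had a lowest, median and highest level of 2.42, 25.1 and 235 TPM in monocytes, against 1.93, 6.497 and 20.7 TPM in progenitors. It was higher in the monocyte in 22 of 24 clones, and the ranges overlapped, with the monocytes of clones 19, 9 and 8 at the low end and the monocyte of clone 15 at the top. The log2 fold change was 1.96 (SE 0.28, limma adjusted p = 4.72e-07). Dnmt3b (chr2:153649450-153687730) had 0.0407, 0.264 and 1.82 TPM in monocytes, against 0.961, 6.19 and 13.5 TPM in progenitors. It was lower in the monocyte in all 24 clones, and its ranges touched only because the monocyte of clone 22 lay above the progenitor of clone 24. The log2 fold change of Dnmt3b was -2.37 (SE 0.12, limma adjusted p = 1.26e-15). Within a library, the ratio of Dnmt3a to Dnmt3b ran from 10.6 to 1780 with a median of 126 in monocytes, against 0.453 to 3.14 with a median of 1.25 in progenitors. Dnmt3a was thus the more abundant of the pair in 24 of 24 monocyte and 16 of 24 progenitor libraries.

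The maintenance genes had levels that overlapped widely between the states. Uhrf1, which binds the hemimethylated DNA left behind a replication fork, had 1.67, 14.8 and 47.99 TPM in monocytes, against 4.23, 25.1 and 66.4 TPM in progenitors. The ranges overlapped over most of their length, and the gene was lower in the monocyte in 15 of 24 clones. Its log2 fold change of -0.79 (SE 0.32) passed narrowly (limma adjusted p = 0.033), and the call was lost when any 1 of 8 clones was left out. Dnmt1, the maintenance methyltransferase itself, averaged 27.7 ± 7.23 TPM in monocytes and 28.8 ± 18.2 TPM in progenitors (SD, n = 24 each), and was higher in the monocyte in 12 clones and lower in 12 (limma adjusted p = 0.392).

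Of the TET enzymes, Tet1 and Tet3 were higher in monocytes and Tet2 did not pass. Tet1 ranged from 0 to 7.38 TPM with a median of 1.21 in monocytes, against 0.0341 to 1.04 TPM with a median of 0.402 in progenitors. It was the member listed at 0 in the monocyte of clone 17, and it was higher in the monocyte in 19 of 24 clones (log2 fold change 0.86, SE 0.19, limma adjusted p = 0.00032). Tet3 had 1.07, 3.19 and 8.44 TPM in monocytes, against 0.270, 1.34 and 5.12 TPM in progenitors. Its ranges overlapped and 19 of 24 clones were higher in the monocyte (log2 fold change 0.69, SE 0.16, limma adjusted p = 0.000454). Tet2, known as a frequent target of loss-of-function mutation in myeloid cells, had 1.68, 5.42 and 14.7 TPM in monocytes, against 1.005, 2.28 and 15.3 TPM in progenitors (log2 fold change 0.33, SE 0.23, limma adjusted p = 0.204). Among 9 other genes of DNA methylation and its readers, 3 rose, 4 fell and 2 did not pass. The largest of these changes was in Dnmt3l, a partner of the Dnmt3 enzymes without catalytic activity, with 0.553, 9.08 and 31.9 TPM in monocytes, against 0, 0.204 and 2.25 TPM in progenitors (log2 fold change 2.60, SE 0.26, limma adjusted p = 9.90e-10, higher in 23 of 24 clones).

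In PRC2, the catalytic subunits Ezh1 and Ezh2 moved in opposite directions. Ezh2 (chr6:47530139-47595341), the enzyme of dividing cells, had 5.57, 25.3 and 50.0 TPM in monocytes, against 22.01, 78.1 and 109 TPM in progenitors. It was lower in the monocyte in 23 of 24 clones; the exception was clone 24, whose progenitor was the lowest, and the ranges also overlapped between the highest monocytes and the next lowest progenitor. Its log2 fold change was -1.63 (SE 0.19, limma adjusted p = 2.58e-08). Ezh1, the subunit with weaker methyltransferase activity that is known to persist in resting cells, had 2.27, 4.41 and 14.9 TPM in monocytes, against 0.421, 2.53 and 5.52 TPM in progenitors, and was higher in the monocyte in 18 of 24 clones (log2 fold change 0.79, SE 0.15, limma adjusted p = 5.39e-05). The ratio of Ezh1 to Ezh2 had a median of 0.177 in monocytes, where it ran from 0.0503 to 2.68, and of 0.0342 in progenitors, where it ran from 0.0179 to 0.0541. Ezh2 remained the more abundant of the pair in all but 2 monocyte libraries and in every progenitor library.

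The other PRC2 subunits changed less. Suz12, the scaffold of the complex, averaged 17.5 ± 7.16 TPM in monocytes and 27.9 ± 13.8 TPM in progenitors (SD, n = 24 each; log2 fold change -0.59, SE 0.21, limma adjusted p = 0.0152). Eed, which reads the methyl mark, averaged 38.7 ± 14.8 TPM in monocytes and 39.6 ± 12.7 TPM in progenitors and did not pass (limma adjusted p = 0.763). Jarid2, a DNA-binding cofactor, had medians of 8.94 TPM in monocytes and 5.12 TPM in progenitors and did not pass over all clones (limma adjusted p = 0.0865).

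Of the 7 PRC1 genes tested, 4 fell and 1 rose. Bmi1 (chr2:18677018-18686629), the Polycomb RING-finger protein known for its role in stem-cell self-renewal, had 1.26, 6.06 and 14.7 TPM in monocytes, against 6.08, 20.98 and 51.3 TPM in progenitors. All 24 clones were lower in the monocyte, while the ranges over clones overlapped. Bmi1 fell by 1.67 log2 units (SE 0.17, limma adjusted p = 9.12e-10). Kdm2b, which brings PRC1 to unmethylated CpG islands, had 0.583, 5.90 and 18.9 TPM in monocytes, against 2.30, 12.8 and 37.1 TPM in progenitors, with 19 of 24 clones lower and overlapping ranges (log2 fold change -1.04, SE 0.24, limma adjusted p = 0.000337). Cbx2 and Cbx8, alternative subunits that read the Polycomb mark, differed in direction: Cbx2 averaged 0.727 ± 0.308 TPM in monocytes and 2.64 ± 1.94 TPM in progenitors, and Cbx8 averaged 4.37 ± 1.89 TPM in monocytes and 2.33 ± 1.30 TPM in progenitors (SD, n = 24 each). The log2 fold changes were -0.91 (SE 0.16, limma adjusted p = 1.63e-05) for Cbx2 and 0.72 (SE 0.17, limma adjusted p = 0.00051) for Cbx8. The ubiquitin ligase Rnf2 fell by 0.64 on the log2 scale (SE 0.18, limma adjusted p = 0.00251), and its paralog Ring1 had a log2 fold change of -0.12 and did not pass. Asxl1, a partner of the H2A deubiquitinase Bap1, did not pass. Of 20 other Polycomb genes, 4 rose and 10 fell; Rybp, a PRC1 subunit, had 3.87, 12.6 and 30.0 TPM in monocytes, against 0.965, 4.84 and 8.79 TPM in progenitors (log2 fold change 1.29, SE 0.19, limma adjusted p = 1.17e-06).

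**Figure D2:**
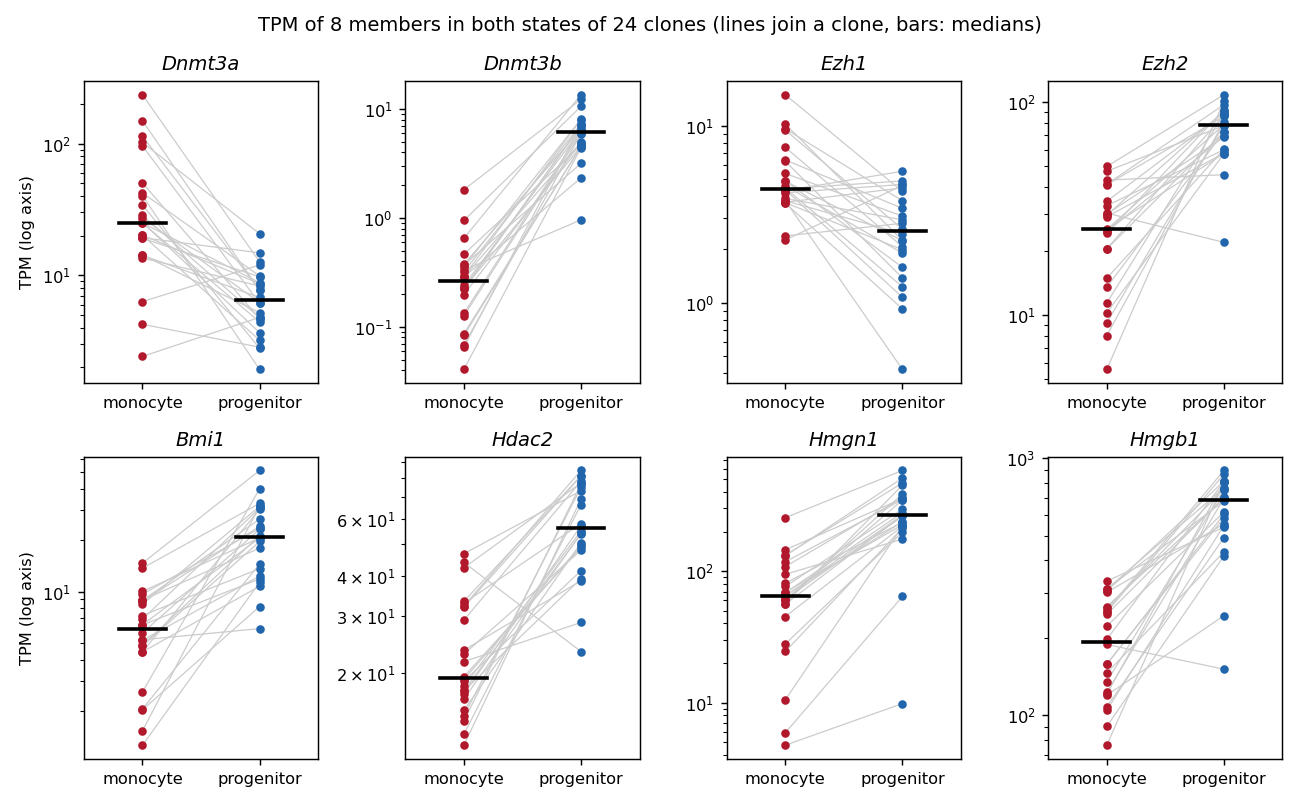
TPM (log axis) of 8 regulators in the monocyte (red, left) and progenitor (blue, right) library of each of 24 clones, with lines joining the libraries of a clone and bars at the medians. Dnmt3a and Ezh1 have higher medians in monocytes (25.1 and 4.41 TPM) than in progenitors (6.497 and 2.53 TPM), and the other 6 have lower ones.

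The histone methyltransferases as a group changed little between states over all clones: 1 of 7 rose, none fell in the limma test (0 at an unadjusted p under 0.05 either) and the median log2 fold change was 0.11. The gene that rose was Kmt2d, an enhancer methyltransferase of the trithorax type, with 2.57, 9.87 and 23.7 TPM in monocytes, against 0.561, 3.92 and 25.7 TPM in progenitors (log2 fold change 0.75, SE 0.30, limma adjusted p = 0.0255). The call was lost with a pseudocount of 5 (log2 fold change 0.37, limma adjusted p = 0.0816) and with no filter on low values (limma adjusted p = 0.0544). The monocyte range lay within the progenitor range, and 15 of 24 clones were higher in the monocyte. Kmt2a, Kmt2c, Setd1a, Setd2, Dot1l and Nsd1 had log2 fold changes between -0.13 and 0.44. The changes of Kmt2d, Kmt2a, Kmt2c, Setd1a and Dot1l differed between sets of clones, as described below. Each was negative in clones 15 to 26 and positive in clones 1 to 13, such as -1.41 and 1.01 for Setd1a. The small changes over all clones thus average opposite directions. Of 16 other histone methyltransferases, 4 rose and 6 fell, led by the arginine methyltransferases. Prmt5 had 1.29, 9.99 and 39.7 TPM in monocytes, against 6.74, 44.3 and 82.9 TPM in progenitors (log2 fold change -2.06, SE 0.20, limma adjusted p = 5.70e-10). Prmt1 had 15.2, 82.2 and 202 TPM in monocytes, against 137, 293 and 360 TPM in progenitors (log2 fold change -1.87, SE 0.16, limma adjusted p = 2.98e-11).

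Among the demethylases, Kdm6b rose and Kdm1a fell. Kdm6b, the inducible demethylase of the Polycomb mark, averaged 6.19 ± 6.87 TPM in monocytes and 2.53 ± 2.28 TPM in progenitors (SD, n = 24 each; log2 fold change 0.94, SE 0.26, limma adjusted p = 0.00256). The monocyte of clone 20 had the most, 30.9 TPM, against a monocyte median of 4.28 TPM. Kdm1a, the demethylase of the CoREST complex, averaged 9.53 ± 3.36 TPM in monocytes and 17.2 ± 6.81 TPM in progenitors (log2 fold change -0.74, SE 0.15, limma adjusted p = 0.000124). Kdm5a and Kdm5b, which remove methyl groups from active promoters, did not pass. Of 10 other histone demethylases measured, 1 rose and none fell in the limma test (0 at an unadjusted p under 0.05 either).

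Of 7 deacetylases tested, 2 rose and 3 fell. Among the class I enzymes, Hdac2 (chr10:36974544-37001889) had 11.9, 19.3 and 46.8 TPM in monocytes, against 23.3, 56.0 and 84.7 TPM in progenitors. It was lower in the monocyte in 23 of 24 clones, and the ranges overlapped. Hdac2 fell by 1.30 log2 units (SE 0.15, limma adjusted p = 1.17e-08). Its close paralog Hdac1 averaged 31.9 ± 7.27 TPM in monocytes and 37.6 ± 9.90 TPM in progenitors (SD, n = 24 each) and did not pass (limma adjusted p = 0.113). Hdac3, which acts within corepressor complexes, had a small change of -0.25 (SE 0.11, limma adjusted p = 0.0409) that was lost when any 1 of 15 clones was left out. Of the class IIa enzymes, which shuttle between nucleus and cytoplasm, Hdac4 and Hdac5 rose and Hdac7 fell. Hdac4 had 1.36, 3.51 and 12.5 TPM in monocytes, against 0.140, 0.760 and 9.40 TPM in progenitors. The progenitor of clone 21, one of those with raised monocyte and neutrophil markers, held the 9.40 TPM, and the next highest progenitor had 3.61 TPM. The log2 fold change of Hdac4 was 1.12 (SE 0.20, limma adjusted p = 1.41e-05), and 1.18 without clone 21. Hdac5 had 16.1, 29.4 and 56.5 TPM in monocytes, against 8.98, 18.03 and 32.8 TPM in progenitors. It was higher in the monocyte in 23 of 24 clones (log2 fold change 0.76, SE 0.10, limma adjusted p = 2.51e-07). Hdac7 fell by 0.59 on the log2 scale (SE 0.13, limma adjusted p = 0.000368), and the sirtuin Sirt1 had a log2 fold change of -0.01 and did not pass.

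The acetyltransferases all passed, in different directions. Ep300 (chr15:81585351-81652077), the p300 coactivator of enhancers, had 2.29, 18.4 and 66.9 TPM in monocytes, against 0.755, 4.49 and 32.0 TPM in progenitors. The ranges overlapped widely and 16 of 24 clones were higher in the monocyte. The log2 fold change was 1.29 (SE 0.38, limma adjusted p = 0.00411). Crebbp, its paralog, had 1.59, 6.63 and 20.3 TPM in monocytes, against 0.294, 2.01 and 11.3 TPM in progenitors (log2 fold change 0.93, SE 0.23, limma adjusted p = 0.000809). Both changes differed between sets of clones, as described below. Kat2a, the acetyltransferase of the SAGA complex, had 0.703, 3.65 and 12.8 TPM in monocytes, against 2.95, 11.7 and 20.01 TPM in progenitors. It was lower in the monocyte in 23 of 24 clones (log2 fold change -1.20, SE 0.18, limma adjusted p = 1.70e-06). Of 17 other deacetylase, acetyltransferase and associated genes measured, 7 rose and 4 fell. Among them, the deacetylase Sirt2 rose, with medians of 46.7 TPM in monocytes and 16.7 TPM in progenitors (log2 fold change 1.44, SE 0.17, limma adjusted p = 2.15e-08).

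Of 5 remodellers, 2 fell. Smarcb1, a core subunit of the SWI/SNF (BAF) complex, averaged 12.9 ± 4.52 TPM in monocytes and 26.01 ± 7.37 TPM in progenitors (SD, n = 24 each; log2 fold change -0.96, SE 0.15, limma adjusted p = 2.39e-06). Chd9, a chromodomain helicase, had 42.3, 68.5 and 267 TPM in monocytes, against 31.3, 95.1 and 268 TPM in progenitors. Its ranges overlapped nearly fully and its log2 fold change was -0.31 (SE 0.11, limma adjusted p = 0.0131 with the clone block and 0.185 without it). The ATPases Smarca4 and Chd4 and the BAF subunit Arid1a did not pass. Of 22 other remodellers and histone chaperones measured, 2 rose and 10 fell.

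Of 5 HMG proteins, 3 fell. As a group they took a median of 63.4% of the summed TPM of the 52 genes in monocytes (range 29.7 to 81.4%) and 71.7% in progenitors (range 53.8 to 81.3%). Hmgn1 (chr16:96120618-96127729), a nucleosome-binding protein that loosens chromatin, had 4.75, 65.1 and 255 TPM in monocytes, against 9.84, 267 and 583 TPM in progenitors. All 24 clones were lower in the monocyte. Hmgn1 fell by 2.10 log2 units (SE 0.16, limma adjusted p = 3.71e-12). Hmgb1 (chr5:149046702-149184489), a DNA-bending protein that is also released as a danger signal, had 76.3, 193 and 332 TPM in monocytes, against 151, 689 and 896 TPM in progenitors. It was lower in the monocyte in 23 of 24 clones, and the overlap of the ranges rested on the 2 lowest progenitors, at 151 and 244 TPM. Hmgb1 fell by 1.70 log2 units (SE 0.15, limma adjusted p = 1.19e-10).

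Hmga1, a DNA-bending protein bound to AT-rich sequence, had 47.0, 92.4 and 201 TPM in monocytes, against 115, 199 and 297 TPM in progenitors (log2 fold change -1.14, SE 0.14, limma adjusted p = 3.20e-08). Its level is uncertain, because a row for a near-identical copy, Hmga1b, held 88.0% of the summed TPM of the pair in monocytes and 88.6% in progenitors. The sum of the 2 rows had medians of 766 TPM in monocytes and 1916 TPM in progenitors. Hmgn2 and Hmgb2 did not pass, and their SD was larger in monocytes: Hmgn2 averaged 438 ± 260 TPM in monocytes and 297 ± 53.3 TPM in progenitors, and Hmgb2 averaged 246 ± 145 TPM in monocytes and 214 ± 75.3 TPM in progenitors (SD, n = 24 each). Of 6 other HMG and linker histone genes, 5 fell and none rose in the limma test (0 at an unadjusted p under 0.05 either). Hmgb3 had 0.647, 9.46 and 22.4 TPM in monocytes, against 19.9995, 72.3 and 104 TPM in progenitors (log2 fold change -3.00, SE 0.20, limma adjusted p = 4.72e-13). Hmga2, the fetal paralog of Hmga1, had 0.172, 1.52 and 4.03 TPM in monocytes, against 2.79, 9.83 and 23.98 TPM in progenitors (log2 fold change -2.10, SE 0.16, limma adjusted p = 7.30e-12). Over all 103 other chromatin genes listed, 100 were measured, of which 21 rose, 39 fell and 40 did not pass, with a median log2 fold change of -0.13.

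The change between states was then compared between clones 15 to 26 (n = 11) and clones 1 to 13 (n = 13). No label records a batch. The sets were taken from the gap in the clone numbers after earlier results of these data had shown them to differ. The p-values below are therefore not an independent test that the sets differ. Whether the sets were grown or sequenced apart is not known. Whole libraries also differed between the sets. Monocytes had 16114 to 17507 genes at 0 TPM in clones 1 to 13, against 17937 to 20027 in clones 15 to 26. The mitochondrial share of progenitors was 3.44 to 8.38% in clones 1 to 13, against 8.45 to 16.7% in clones 15 to 26. The genes at 0 in progenitors and the mitochondrial share in monocytes overlapped between the sets. The part of these measures in the differences below was not tested. In a limma test of the difference itself, 17 of the 50 regulators had a lower change (monocyte minus progenitor) in clones 15 to 26 than in clones 1 to 13, where 9.79% of all 11072 genes did, and none had a higher one (0 at an unadjusted p under 0.05 either), where 1.66% of all genes did. The difference was negative for 42 of the 50, with a median of -0.63 log2 units for the regulators and -0.29 for all genes. In 14 of the 17 the change was negative in clones 15 to 26 and positive in clones 1 to 13. The 17 were called for a negative difference, which favours such signs, and the share of all genes with them was not counted. Some of these changes were near 0, such as -0.01 for Crebbp in clones 15 to 26. In clones 1 to 13 it was 0.03 for Uhrf1 and 0.09 for Hdac1.

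The 17 genes came from most roles: Dnmt1, Uhrf1, Tet2 and Tet3 act on DNA methylation, Jarid2, Cbx2 and Asxl1 on Polycomb, Kmt2a, Kmt2c, Kmt2d, Setd1a and Dot1l methylate histones, Kdm5a demethylates them, Hdac1 and Hdac4 deacetylate, and Ep300 and Crebbp acetylate. The widest difference was in Ep300. In clones 15 to 26 it had 2.29, 7.30 and 66.9 TPM in monocytes, against 2.53, 17.6 and 32.0 TPM in progenitors, a change of -0.18 log2 units. In clones 1 to 13 it had 3.29, 21.9 and 49.1 TPM in monocytes, against 0.755, 2.75 and 10.4 TPM in progenitors, a change of 2.52. The difference was -2.70 (SE 0.58, limma adjusted p = 0.00425). The progenitors of the 2 sets overlapped only between 2.53 and 10.4 TPM, while the monocytes of clones 15 to 26 spanned all those of clones 1 to 13.

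Setd1a, the catalytic subunit of a promoter methyltransferase complex, reversed its direction. In clones 15 to 26 it had 1.89, 6.60 and 21.3 TPM in monocytes, against 1.79, 26.6 and 35.7 TPM in progenitors, a change of -1.41. In clones 1 to 13 it had 1.45, 11.03 and 33.6 TPM in monocytes, against 1.10, 3.64 and 12.1 TPM in progenitors, a change of 1.01. The difference was -2.41 (SE 0.52, limma adjusted p = 0.00425), and a single progenitor of clones 15 to 26, that of clone 24 at 1.79 TPM, lay within the range of the progenitors of clones 1 to 13. Kmt2d followed the same order, with progenitor medians of 18.3 TPM in clones 15 to 26 and 1.73 TPM in clones 1 to 13, monocyte medians of 13.2 TPM in clones 15 to 26 and 8.32 TPM in clones 1 to 13, and a difference of -2.16 (SE 0.43, limma adjusted p = 0.00265). Crebbp had progenitors of 2.95 to 11.3 TPM in clones 15 to 26 and of 0.294 to 2.11 TPM in clones 1 to 13, which did not overlap, and a difference of -1.74 (SE 0.33, limma adjusted p = 0.00149). Tet2 had progenitor medians of 11.4 TPM in clones 15 to 26 and 1.71 TPM in clones 1 to 13, and every progenitor of clones 15 to 26 except those of clones 24 and 21 lay above the highest of clones 1 to 13, at 2.51 TPM. Its difference was -1.67 (SE 0.35, limma adjusted p = 0.00324).

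The remaining differences among the 17 lay between -1.78 for Uhrf1 and -0.65 for Hdac1. Uhrf1 had a change of -1.75 log2 units in clones 15 to 26, against 0.03 in clones 1 to 13. Hdac4 had progenitor medians of 2.76 TPM in clones 15 to 26 and 0.445 TPM in clones 1 to 13, and a difference of -1.42 (SE 0.29, limma adjusted p = 0.00299). Jarid2 had progenitor medians of 10.7 TPM in clones 15 to 26 and 3.93 TPM in clones 1 to 13, and a difference of -1.52 (SE 0.36, limma adjusted p = 0.00864). Kmt2a, a low-abundance trithorax methyltransferase, had 3.87 TPM in the progenitors of clones 15 to 26 and 0.383 TPM in those of clones 1 to 13, as medians, and a difference of -1.33 (SE 0.27, limma adjusted p = 0.00284). By the medians of single genes, the sets stood apart in the progenitors more than in the monocytes. The progenitor median was higher in clones 15 to 26 for 44 of 52 regulators (median ratio 2.31) and for 71.8% of all genes (1.36). In monocytes the median was higher in clones 15 to 26 for 24 of the 52 regulators and for 46.3% of all genes. For the 17 genes it was higher in 17 of the 17 in progenitors (median ratio 5.22) and in 7 in monocytes (0.951). The 17 were called on these same values, so their figures are not separate support.

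Several of the regulators with the largest change between the states did not pass the test of the difference. Ezh2 had a difference of -0.28 (limma adjusted p = 0.673), and Dnmt3a, Dnmt3b, Bmi1 and Hmgn1 did not pass either. Hmgn1 had a change of -2.09 in clones 15 to 26, against -2.11 in clones 1 to 13. With each set tested alone, on fewer clones, 2 regulators were higher in monocytes in clones 15 to 26, Dnmt3a and Hdac5, and 21 were higher in clones 1 to 13. Among the called regulators, 12 did not pass in clones 15 to 26 alone. Of these, Rnf2 had a log2 fold change of -0.63 there (-0.64 over all clones), Chd9 of -0.48 (-0.31 over all) and Hdac3 of -0.36 (-0.25 over all), which are close to or larger in size. Lower values were seen for Tet1 (0.63), Ezh1 (0.59), Tet3 (0.14), Cbx8 (0.34), Kdm6b (0.23) and Hdac4 (0.35), and Kmt2d (-0.42), Ep300 (-0.18) and Crebbp (-0.01) had the opposite sign. In clones 1 to 13 alone, Suz12 (-0.30), Kdm2b (-0.60), Hdac3 (-0.16), Chd9 (-0.17) and Uhrf1 (0.03) did not pass.

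Transcript length moved with the difference. The 17 genes had a longest annotated transcript with a median of 8353 bases, against 4320 bases for the other regulators tested and 3053 bases for all genes. Among all genes with a transcript of 8000 bases or more, 26.7% had a lower change in clones 15 to 26, as did 10 of the 17 regulators of that length, and among genes under 2000 bases it was 5.69%. Spearman's rho between length and the difference was -0.56 over the 50 regulators and -0.38 over 10910 genes, given as a description since genes are not independent. The part of length, and of whatever in library preparation goes with it, in these differences was not tested.

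The number of genes called also depended on single clones. Leaving out any 1 of clones 7, 10, 18, 19 and 23 gave 11 regulators in place of 17, and leaving out clone 24 gave 26. The calls over all genes moved likewise, with 2803 genes of 11089 lower without clone 24 and 611 of 11068 without clone 18. The 11 regulators that passed without each single clone were Tet2, Tet3, Jarid2, Cbx2, Kmt2a, Kmt2d, Setd1a, Kdm5a, Hdac4, Ep300 and Crebbp.

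**Figure D3:**
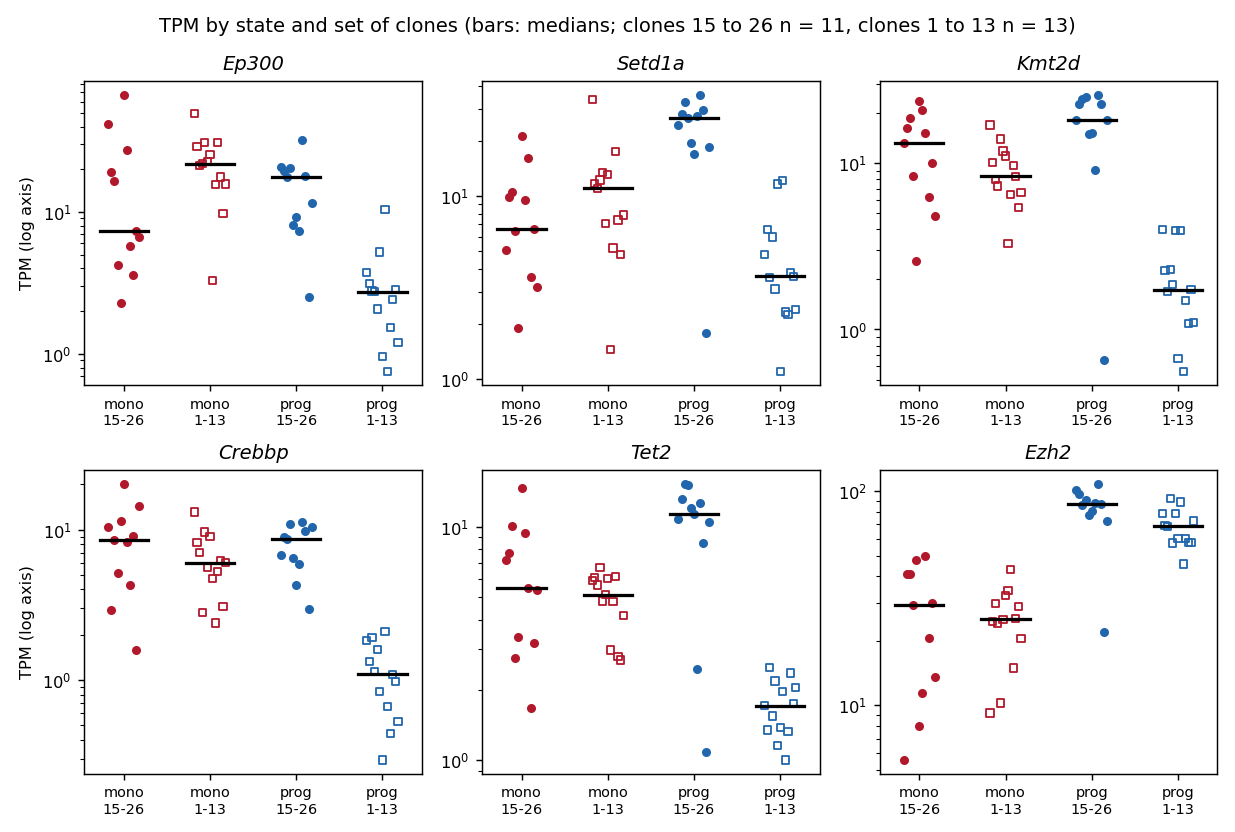
TPM (log axis) of 6 regulators in monocytes (red) and progenitors (blue) of clones 15 to 26 (filled circles, n = 11) and clones 1 to 13 (open squares, n = 13), with bars at the medians. The progenitor medians of Ep300, Setd1a, Kmt2d, Crebbp and Tet2 are higher in clones 15 to 26, at 17.6, 26.6, 18.3, 8.65 and 11.4 TPM, than in clones 1 to 13, at 2.75, 3.64, 1.73, 1.09 and 1.71 TPM; Ezh2 is shown for a gene that did not pass the test of the difference.

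Few of the regulators, like few of all genes, carried a clone's level from one state to the other. Across 24 clones, the level in the monocyte was correlated with the level in the progenitor of the same clone for 3 of 46 regulators tested, where 3.70% of 9570 genes passed (Pearson's r of log2(TPM + 1), one-sided permutation test, adjusted over all 9570 genes). The median r was 0.12 for the regulators and 0.13 for all genes. The 3 were Hmgn1, Chd9 and Hdac5, and the first 2 were known from earlier results of these data.

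Hmgn1 had r = 0.81 and Spearman's rho = 0.68 (permutation p = 1e-05 and 0.00012, the first being the smallest that 100000 permutations can give; adjusted p for r = 0.00282). The progenitors of clones 26 and 20 were far below the rest at 9.84 and 64.2 TPM, and the monocytes of the same clones were the lowest at 4.75 and 5.90 TPM. Without these 2 clones r was 0.64 (permutation p = 0.00026). Within clones 15 to 26 it was 0.80, and within clones 1 to 13 it was 0.82. With each set centred it still passed over all genes (adjusted permutation p = 0.00957).

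Chd9 had r = 0.80 and rho = 0.80 (permutation p = 1e-05 each, adjusted p for r = 0.00282). It was higher in clones 15 to 26 in both states, with monocyte medians of 110 TPM in clones 15 to 26 and 63.5 TPM in clones 1 to 13, and progenitor medians of 160 TPM in clones 15 to 26 and 67.1 TPM in clones 1 to 13. Within the sets r was 0.66 in clones 15 to 26 and 0.59 in clones 1 to 13, and without the 2 clones farthest from the median it was 0.74. Centred by set, the adjusted permutation p was 0.103. Hdac5 had r = 0.61 and rho = 0.57 (permutation p = 0.00083 and 0.00206, adjusted p for r = 0.0332), and r = 0.53 without the 2 farthest clones. The relation was not seen within the sets, where r was -0.05 in clones 15 to 26 and 0.25 in clones 1 to 13. Its monocyte medians were 39.0 TPM in clones 15 to 26 and 23.8 TPM in clones 1 to 13, and its progenitor medians 24.4 TPM in clones 15 to 26 and 14.9 TPM in clones 1 to 13. Tet2 fell into separate groups of progenitors, so its pooled correlation is not described. It was still counted among the regulators tested, and it did not pass.

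**Figure D4:**
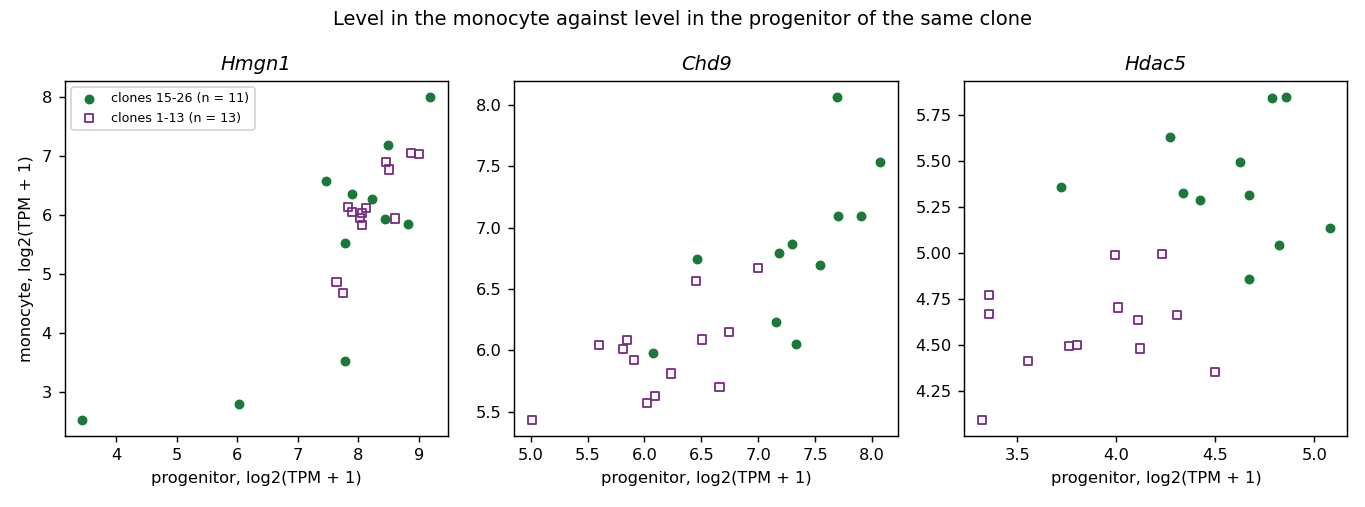
Level in the monocyte against level in the progenitor of the same clone, both as log2(TPM + 1), for Hmgn1, Chd9 and Hdac5, with filled circles for clones 15 to 26 (n = 11) and open squares for clones 1 to 13 (n = 13). Hmgn1 rises within both sets (r = 0.80 and 0.82), while Hdac5 has r = -0.05 within clones 15 to 26 and r = 0.25 within clones 1 to 13.

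Several of the regulators act at replication forks, and the last comparison set each gene against the mean log2(TPM + 1) of 10 S-phase genes (the Mcm2 to Mcm7 helicase genes, Pcna, Gins2, Rrm2 and Tyms) across the clones of one state. Of the 10 S-phase genes, 9 were lower in monocytes, with a median log2 fold change of -1.33. In monocytes, 11 of 48 regulators rose with the S-phase level and 3 fell with it, where 16.6% of 10753 genes were positively and 5.47% negatively related (two-sided permutation test of Pearson's r, adjusted over all 10753 genes). Monocytes of clones 17, 9 and 22 had the highest S-phase levels, 6.21, 6.15 and 6.13. Those of clones 17 and 22 also had the most progenitor markers, and the relations were not tested without these 2 clones. In progenitors 43 of 49 were positively related and 0 negatively, but 68.2% of 10710 genes were positively and 0.878% negatively related, and the progenitor of clone 24 had an S-phase level of 4.57, against 5.64 in the next lowest, so the progenitor relations are not described further.

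Uhrf1 followed the S-phase level most closely. In monocytes r was 0.98 and rho 0.98 (permutation p = 1e-05 each, the smallest possible; adjusted p for r = 0.00027), with r = 0.99 within clones 15 to 26, r = 0.95 within clones 1 to 13, and r = 0.96 without the 2 clones farthest from the median, clones 21 and 15. Ezh2 had r = 0.84 and rho = 0.75 (permutation p = 1e-05 and 5e-05, adjusted p for r = 0.00027), with 0.91 within clones 15 to 26, 0.74 within clones 1 to 13 and 0.78 without those farthest clones. Hmgb1 had r = 0.80 and rho = 0.89 (permutation p = 1e-05 each, adjusted p for r = 0.00027), with 0.74 in clones 15 to 26, 0.94 in clones 1 to 13 and 0.83 without those clones. These are the genes whose promoters are printed above; the first 2 windows hold an E2F-type match and the last does not, and of 9 positively related regulators with a promoter in RefSeq 2 held a match, against 4 of 34 other regulators tested.

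The other 8 positively related genes were Hmga1 (r = 0.67), Hdac3 (0.65), Smarcb1 (0.64), Hmgb2 (0.58), Hmgn2 (0.56), Kdm2b (0.52), Hmgn1 (0.52) and Hdac1 (0.51), with adjusted permutation p from 0.00338 to 0.0470. Their rho ran from 0.31 for Hmgn1 to 0.75 for Hmga1, and without clones 21 and 15 their r ran from 0.49 to 0.72. Centred by set, 6 of the 11 passed, namely Uhrf1, Ezh2, Hmgb1, Hmga1, Hdac3 and Smarcb1. Hmgn1 had r = 0.66 within clones 15 to 26 and r = -0.12 within clones 1 to 13, and this difference was not tested. Dnmt1, which copies DNA methylation at each replication, did not pass (r = 0.43, rho = 0.58, adjusted permutation p for r = 0.117). The negative relations were Crebbp (r = -0.60, rho = -0.58), Kmt2c (r = -0.55, rho = -0.17) and Setd2 (r = -0.51, rho = -0.18), with adjusted permutation p of 0.0157, 0.0333 and 0.0460 for r in that order. After rescaling without mitochondrial, Gm and pseudogene rows, Crebbp (r = -0.46) and Setd2 (r = -0.48) did not pass. For Kmt2c and Setd2 the relation rested on clones 21 and 15, without which r was -0.31 and -0.21, while for Crebbp it was -0.64 without them. Of the genes that fell between the states, 16 were in this test and 8 of these were positively related. Bmi1 (r = 0.28), Hdac2 (r = 0.46), Kat2a (r = 0.29), Hdac7 (r = 0.50) and Suz12 (r = 0.38) did not pass. Neither did Rnf2 (r = 0.05), Chd9 (r = -0.0016) and Kdm1a (r = -0.19).

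**Figure D5:**
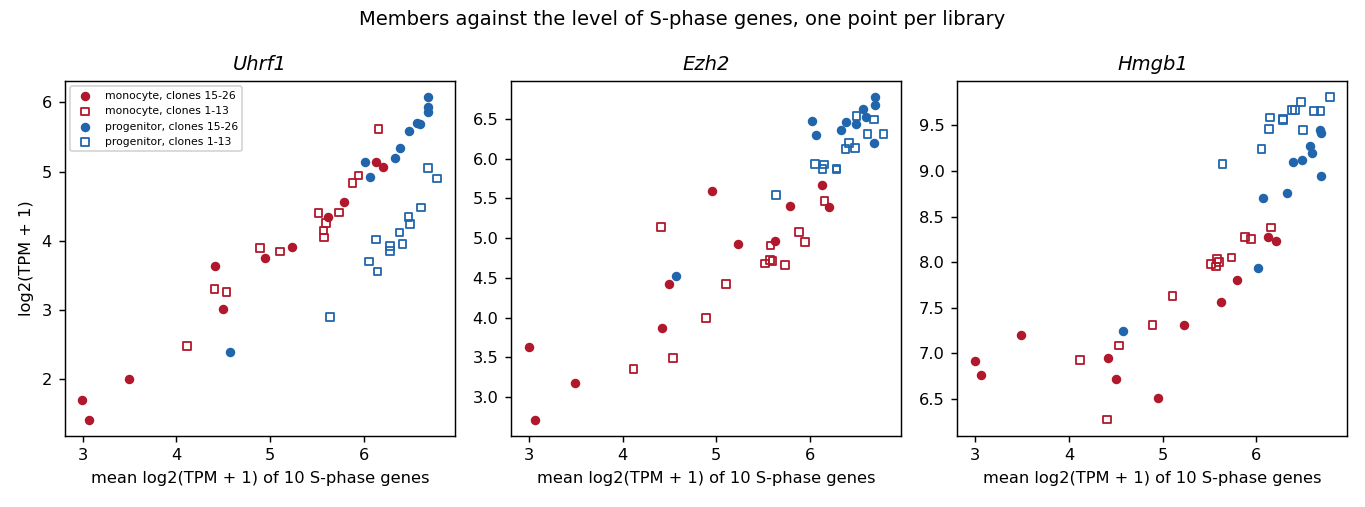
Log2(TPM + 1) of Uhrf1, Ezh2 and Hmgb1 against the mean log2(TPM + 1) of 10 S-phase genes, 1 point per library, in monocytes (red) and progenitors (blue) of clones 15 to 26 (filled circles) and clones 1 to 13 (open squares). Among monocytes the 3 genes rise with the S-phase level (r = 0.98, 0.84 and 0.80). The progenitor of clone 24 has the lowest S-phase level of the progenitors, 4.57. The progenitors of clones 9, 21, 10, 19, 11 and 7 also lie within the range of the monocytes, which reaches 6.21.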

How the data were processed

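RNA-seq libraries of 24 ER-Hoxb8 clones in 2 states (48 libraries) were used, grouped by the cell source in their labels. The authors deposited TPM (length-corrected transcript abundances scaled to a fixed library total) per gene symbol, and Salmon and mm10 were used, per the submitters' processing notes; the labels give neither versions nor the annotation, nor how transcripts were summed. TPM keep no depth, so counting error could not be given, and Salmon divides reads among near-identical copies. Of 34643 rows, 26 named as calendar dates were left out; no libraries were identical.

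The states were compared with limma 3.58.1 (R 4.3.3, two-sided, mean-variance trend) on log2(TPM + 1), a scale that understates changes of low genes, over 11072 genes with a mean of at least 1 TPM, p adjusted by Benjamini-Hochberg, called under 0.05. The clone was the block, since the design text pairs the states by clone; as a check, the median correlation of a gene's levels between a clone's libraries was 0.13. The difference between sets of clones was an interaction term in the same model. Correlations across clones used 100000 permutations, with a mean of at least 1 TPM and, between states, an SD of at least 0.25 in each. These are 4 families of tests, and each was tested on simulated data first. Python 3.11.15, numpy 2.4.6, pandas 2.3.3 and scipy 1.17.1 were used.

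The genes and lists were chosen with earlier results of these data known. Genes described in full were those with a passing change of at least 1 log2 unit, those passing the shared or the set test, and examples of each role; of the other chromatin genes, the 4 with the largest passing change each way and a mean of at least 5 TPM in the higher state were named, except that 1 gene this rule takes and 1 marker list are not reported here. Positions are from GENCODE M21. Alternatives were pseudocounts of 0.5 and 5, no filter or a mean of 5 TPM, no block, other scalings, each set of clones alone, and leaving out clones.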

Additional observations from a re-analysis of the deposited data

Results flagged for a closer look

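The change between states (monocyte minus progenitor, log2) differed between clones 15 to 26 and clones 1 to 13 for 17 regulators, by an interaction term in limma. For the genes of DNA methylation the difference was -1.18 for Dnmt1, -1.78 for Uhrf1, -1.67 for Tet2 and -1.01 for Tet3. For Polycomb genes it was -1.52 for Jarid2, -1.14 for Cbx2 and -1.32 for Asxl1. For histone methyltransferases it was -1.33 for Kmt2a, -1.06 for Kmt2c, -2.16 for Kmt2d, -2.41 for Setd1a and -1.03 for Dot1l. The demethylase Kdm5a had a difference of -1.20, the deacetylases had -0.65 for Hdac1 and -1.42 for Hdac4, and the acetyltransferases had -2.70 for Ep300 and -1.74 for Crebbp. The adjusted p was highest for Kmt2c, at 0.0488. Leaving out single clones ended the call of Asxl1 (6 clones), Dnmt1 (11), Uhrf1 (15), Hdac1 (16), Dot1l (20) and Kmt2c (20). Whether a batch of culture or sequencing goes with the sets is not recorded in the labels, so the set and any such batch cannot be told apart.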

How the results depend on the processing

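Of 29 regulators called between the states, 14 kept their call and direction in every setting in which they were tested: Dnmt3a, Dnmt3b, Ezh2, Bmi1, Cbx2, Kdm1a, Hdac2, Hdac5, Hdac7, Kat2a, Smarcb1, Hmgn1, Hmgb1 and Hmga1; Dnmt3b, Cbx2 and Hdac7 fell below the filter of 5 TPM and were not tested with it. Without the replicate block, 11 regulators were higher and 17 lower, in place of 11 and 18; only Chd9 lost its call. The count higher in monocytes was 5 with a mean of at least 5 TPM, which tests fewer genes, 21 in clones 1 to 13 alone and 2 in clones 15 to 26 alone. The count lower was 13 in clones 1 to 13 and 18 in clones 15 to 26. Over all genes, 4189 were higher and 3577 lower of 10771 in clones 1 to 13. In clones 15 to 26, 1995 were higher and 3058 lower of 11206. With a mean of at least 5 TPM, 2558 of 7612 genes were higher. Leaving out each clone in turn gave 11 to 13 higher, 16 to 20 lower and 11 to 26 with a lower change in clones 15 to 26, and leaving out clones 19, 21, 24 and 26 together gave 26 of the last. Shared clone differences numbered 0 within either set and 1 with the sets centred. Positive relations to the S-phase level in monocytes numbered 7 in clones 1 to 13, 6 in clones 15 to 26 and 6 with the sets centred; negative ones numbered 0, 0 and 1, with 1 without clones 19, 21, 24 and 26 and 1 by Spearman's rho. Without mitochondrial, Gm and pseudogene rows, and rescaled, the median log2 fold change of all genes was -0.25, and 10 regulators were higher and 24 lower; Eed, Ring1, Hdac1, Smarca4 and Chd4 joined the lower ones, as did Cbx7, which passed the filter on low values after rescaling, and Kmt2d lost its call.

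The log2 fold change turned its direction in clones 1 to 13 alone for Uhrf1 (0.031), Setd1a (1.01), Nsd1 (0.24), Kdm5b (0.32), Hdac1 (0.086) and Sirt1 (0.19). In clones 15 to 26 alone it turned for Dnmt1 (-0.43), Tet2 (-0.57), Jarid2 (-0.38), Asxl1 (-0.36), Kmt2a (-0.64), Kmt2c (-0.13), Kmt2d (-0.42), Setd2 (-0.056), Dot1l (-0.45), Kdm5a (-0.35), Ep300 (-0.18), Crebbp (-0.011), Arid1a (-0.44) and Hmgb2 (-0.015). Rescaling turned Dnmt1 (-0.031), Kmt2a (-0.011), Setd2 (-0.034), Dot1l (-0.075), Arid1a (-0.069) and Hmgb2 (-0.25). A pseudocount of 5 turned Kmt2a (-0.026), median-of-ratios scaling turned Sirt1 (0.028), and leaving out clones 19, 21, 24 and 26 turned Setd1a (0.13). With single clones left out, the change ran from -0.14 to 0.0070 for Eed, -0.075 to 0.082 for Hmgb2, -0.23 to 0.017 for Setd1a and -0.068 to 0.053 for Sirt1. The correlation turned for Hdac5 between states in clones 15 to 26 (-0.048) and for Hmgn1 with the S-phase level in clones 1 to 13 (-0.12). The cause of these changes was not tested.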
